A study of Mus musculus with 2 samples.

Results

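The genes described here are 6 messenger RNAs that the miR-200 family is reported to repress and that bear on the survival or growth of beta cells: Dnajc3, Xiap, Jazf1, Rps6kb1, Zeb1 and Zeb2. Each gene was read through every array probe set whose only symbol in the platform's annotation table was that gene. That gave 22 probe sets for 5 of the 6 genes, out of 18193 genes with such a probe set. No probe set carried Rps6kb1 as its only symbol, so no value is given for it. The series holds 2 Affymetrix arrays of total RNA from islets, both from male mice aged 6 weeks. One array is of transgenic mice that overexpress miR-141/200c and the other is of control mice, labelled Bl6_control and C57Bl6. The labels name the transgenic sample Ripmir and do not spell out the promoter of the transgene, its strain background, or how many mice gave islets to a sample. Islets were not treated between isolation and RNA extraction in either group. The series title asks how this microRNA family acts on the survival of beta cells in type 2 diabetes. With 1 array per genotype (n = 1) no value has a replicate error and no difference could be tested. "Higher" and "lower" below compare these 2 arrays only.

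MicroRNAs guide a silencing complex to matching sites, mostly in the 3' untranslated regions of messenger RNAs, and the transcripts bound in this way are translated less and degraded faster. A messenger RNA repressed by miR-141 or miR-200c would therefore read lower in the transgenic sample. The family is best known for repressing Zeb1 and Zeb2, which keeps epithelial genes on. Dnajc3 (also P58IPK) is a co-chaperone in the endoplasmic reticulum and an inhibitor of the kinases that phosphorylate eIF2 alpha, and mice without it lose beta cells. Xiap blocks caspases. Jazf1 is a zinc finger cofactor whose human gene lies at a locus of type 2 diabetes risk. Rps6kb1 encodes the kinase S6K1, which acts below mTOR in cell growth.

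The 5 mature microRNAs of the family are printed because their seeds, the bases 2 to 8 that choose the targets, fall into 2 kinds. Sequences are those of RefSeq (GRCm38.p6), 5' to 3', with the seed in capitals.
mmu-miR-141-3p: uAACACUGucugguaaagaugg
mmu-miR-200a-3p: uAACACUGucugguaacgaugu
mmu-miR-200c-3p: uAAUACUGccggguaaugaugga
mmu-miR-200b-3p: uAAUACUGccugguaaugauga
mmu-miR-429-3p: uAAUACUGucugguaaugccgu

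miR-141 lies at chr6:124717917-124717938 and miR-200c at chr6:124718324-124718346, both on the minus strand, with 336 bases between their hairpins. Counted from 1 at the 5' end, the seeds of miR-141 and miR-200c differ by the single substitution C4U. The transgene's 2 microRNAs thus carry both seeds of the family. Among the mature mouse microRNAs of the table, 2 carry the seed AACACUG and 3 carry AAUACUG, all of them shown above. Target sites in the 6 genes were not analysed here, so no probe set could be placed before or after a site.

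All values are log2 RMA values, the background-corrected and normalized signal of a probe set. A difference is the transgenic minus the control value, and 1 on this scale is 2-fold. A probe set counted as measured when at least 1 of its values reached a floor of 5.76, the median of all values on both arrays. Of the 22 member probe sets 13 reached the floor: 5 of Dnajc3, 3 of Xiap, 3 of Zeb1, 1 of Zeb2 and 1 of Jazf1. Of these 13, 7 were lower and 6 higher in the transgenic sample, with a median difference of -0.24. Over all 20548 probe sets at the floor 48.1% were lower, with a median of 0.013. Dnajc3 alone holds 5 of the 13, and the median of the 13 is the value of 1 of its probe sets. That median therefore does not describe the genes as a set. Read through its probe set with the highest mean, Dnajc3 stood at -0.46 and Jazf1 at -0.38. Zeb1 stood at 0.10, Xiap at 0.25 and Zeb2 at 0.64. The 13 probe sets split by gene: those of Dnajc3 and Jazf1 were lower, those of Zeb1 and Zeb2 were higher, and those of Xiap were mixed.

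**Figure D1:**
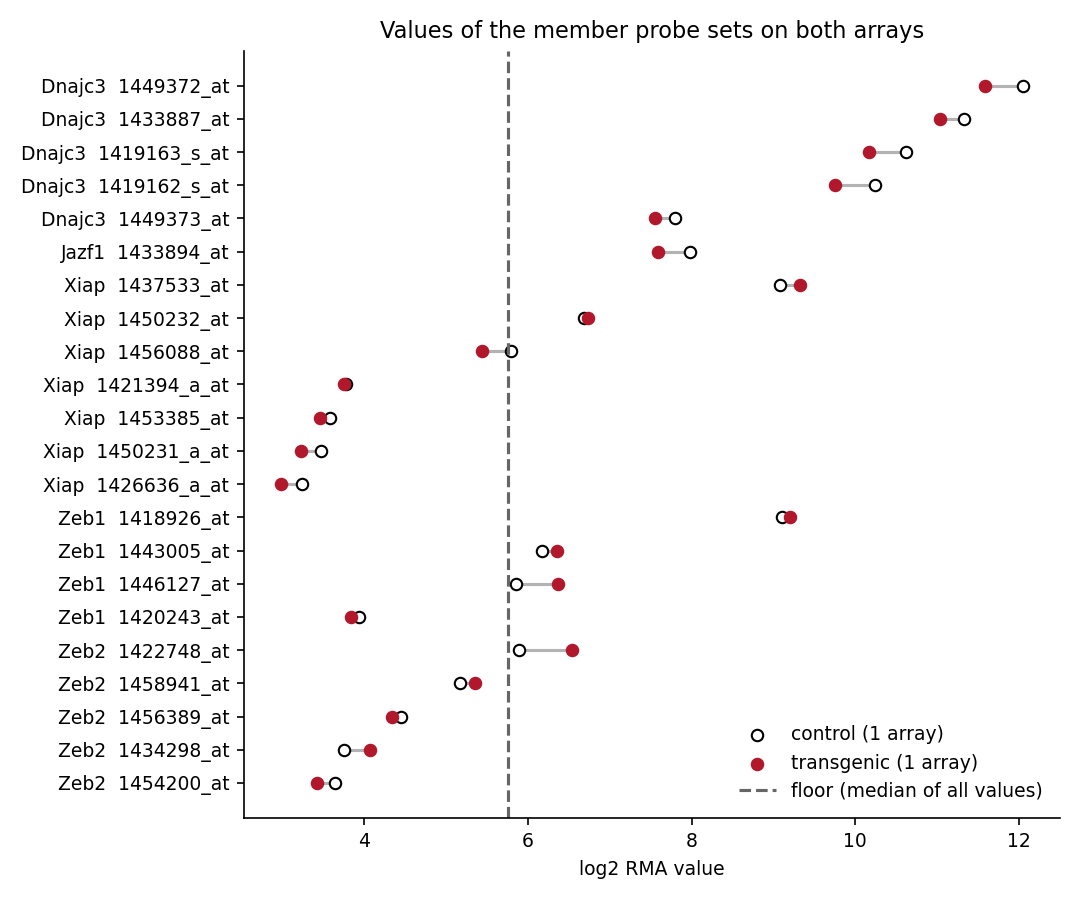
Log2 RMA value (horizontal axis) of each of the 22 member probe sets on the control array (open circle) and the transgenic array (filled circle), with the floor of 5.76 as a dashed line. The transgenic point lies to the left of the control point for all 5 probe sets of Dnajc3 and the 1 of Jazf1, and to the right for the 3 of Zeb1 and the 1 of Zeb2 that reach the floor.

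None of the 13 probe sets was 2-fold apart in either direction. The background for this was 0.784% of all probe sets at the floor at least 2-fold lower and 2.15% at least 2-fold higher. At 1.5-fold, 1 of the 13 was past the size in the higher direction (6.97% of all probe sets) and 0 in the lower direction (4.15%). The spread of differences narrows with signal. The central 95% ran from -0.73 to 1.08 for probe sets with a mean of both arrays below 8, from -0.68 to 0.81 for means of 8 to 10, and from -0.61 to 0.54 above 10. Of the 13 member probe sets 0 lay outside the central 95% of their own range of signal.

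**Figure D2:**
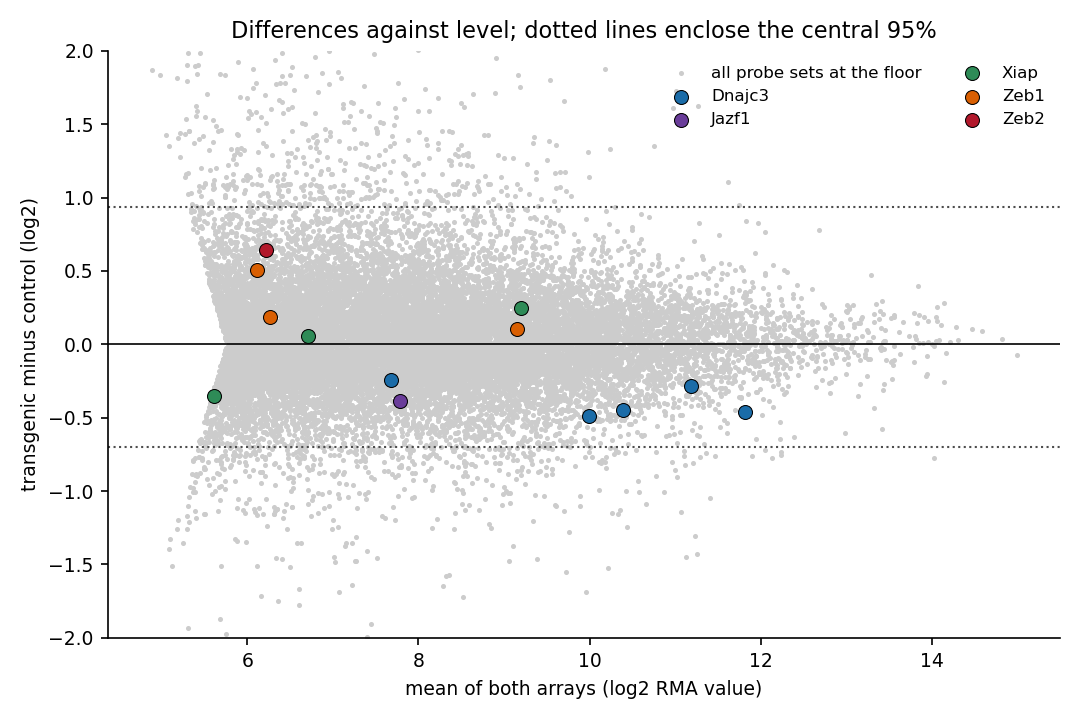
Transgenic minus control difference (log2, vertical axis) against the mean of both arrays (log2 RMA value) for all 20548 probe sets at the floor in grey and the 13 member probe sets in colour; dotted lines enclose the central 95% of all differences, -0.70 to 0.93, and 55 probe sets beyond 2 are not drawn. The Dnajc3 points lie below 0 across a wide range of signal, the Zeb1 and Zeb2 points lie above 0, and all member points lie between the dotted lines.

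Dnajc3 was lower on the transgenic array by all 5 of its probe sets. Its probe set with the highest mean, 1449372_at, read 11.59 on the transgenic and 12.05 on the control array, a difference of -0.46 or 1.37-fold lower. The probe set 1433887_at read 11.04 and 11.33 (-0.29), and 1419163_s_at read 10.17 and 10.62 (-0.45). Of these, 1433887_at is the only one of the 5 listed with a source sequence of its own. The remaining probe sets, 1419162_s_at and 1449373_at, read 9.75 against 10.24 (-0.49) and 7.55 against 7.80 (-0.24), transgenic first. The size of the difference varied little between the 5, with a spread of 0.24 from the lowest to the highest. Among the 181 genes with 5 probe sets at the floor the median spread was 0.52, and 12.7% had a spread this small.

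Agreement in sign was common among such genes. Of the 181 genes with 5 probe sets at the floor 19.9% were lower by all 5, so 5 of 5 is not a result about Dnajc3. These 5 probe sets measure 1 RNA preparation per genotype and are no replicates, and 4 of the 5 Dnajc3 probe sets are listed with the same source sequence. Probe sets of the _s class, to which 2 of the 5 belong, can also match other transcripts, and the 3 others were lower as well. Of all probe sets at the floor, 7.26% had a difference as low as that of 1449372_at or lower.

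Jazf1 was lower by its only probe set. 1433894_at read 7.59 on the transgenic and 7.98 on the control array, a difference of -0.38 or 1.31-fold lower. A difference this low or lower was found for 10.3% of all probe sets at the floor. With 1 probe set, agreement could not be examined for this gene.

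Xiap gave no common direction. Its probe set with the highest mean, 1437533_at, read 9.33 on the transgenic and 9.08 on the control array, 1.19-fold higher (0.25). 1450232_at read 6.74 and 6.68, which is 0.055 apart. 1456088_at read 5.44 and 5.79, 1.27-fold lower (-0.35), with its transgenic value below the floor, where the array's background limits a difference. The mean over the 3 was -0.016, so the direction given for Xiap depends on which probe set stands for the gene. The highest and the lowest of these are listed with the same source sequence, and their differences are 0.59 apart. Over all 3097 pairs of probe sets at the floor with the same gene and source sequence the median gap was 0.18, and 12.9% of pairs were 0.5 or more apart. For the 7968 pairs with different source sequences the median gap was 0.22.

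The other 4 Xiap probe sets lay below the floor on both arrays, with means from 3.11 to 3.76. All 4 were lower in the transgenic sample, by differences between -0.26 and -0.023, at signals where the background of the array limits a difference. Of the 1251 genes with 3 probe sets at the floor, 50.5% were of mixed sign, as Xiap was, 25.3% were lower by all 3 and 24.1% were higher by all 3.

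Zeb1 was not lower by any of its 3 probe sets at the floor. 1418926_at, with the highest mean, read 9.20 on the transgenic and 9.10 on the control array, a difference of 0.10. 1443005_at read 6.35 and 6.17 (0.18) and 1446127_at read 6.36 and 5.86 (0.50, or 1.42-fold higher). The 3 probe sets are listed with 3 different source sequences. The share of genes higher by all 3 of 3 probe sets is the 24.1% given above. The fourth probe set, 1420243_at, read 3.84 and 3.93, below the floor.

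Zeb2 was higher by its only probe set at the floor. 1422748_at read 6.54 on the transgenic and 5.89 on the control array, a difference of 0.64 or 1.56-fold higher. A difference this high or higher was found for 5.83% of all probe sets at the floor. The control value lies just above the floor. The other 4 probe sets lay below it, with means from 3.53 to 5.26, and were 2 lower and 2 higher, between -0.22 and 0.32. Nearest to the floor among them was 1458941_at, which read 5.35 and 5.17.

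**Figure D3:**
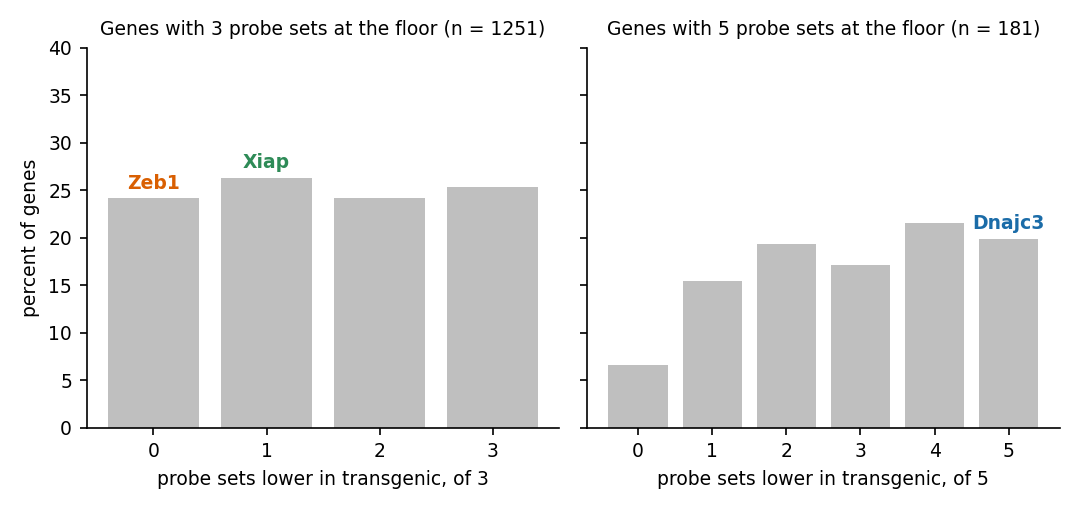
Percent of genes (vertical axis, bars) by the number of their probe sets that were lower in the transgenic sample (horizontal axis), for the 1251 genes with 3 and the 181 genes with 5 probe sets at the floor; names mark the bars that hold Zeb1, Xiap and Dnajc3. Dnajc3 stands with the 19.9% of genes lower by 5 of 5, Zeb1 with the 24.1% lower by 0 of 3 and Xiap with the 26.3% lower by 1 of 3.

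Islets hold macrophages, stellate cells and other cells beside the endocrine cells, and Zeb1 and Zeb2 are mainly expressed in such non-epithelial cells. In RNA of whole islets, a change in the number of cells of a type and a change in RNA per cell cannot be told apart. As background for the marker counts, 45.7% of all 12148 genes at the floor were lower, with a median difference of 0.029. Macrophage markers were higher on the transgenic array for 16 of 17 genes at the floor, with a median difference of 0.82. Ctss, a lysosomal protease, read 11.69 against 10.86, and Lyz2, the lysozyme of myeloid cells, 11.06 against 10.80. The sum over all 17 macrophage markers on the linear scale was 13962 on the transgenic and 9032 on the control array. Itgam, Cx3cr1 and Mrc1 of the macrophage list were below the floor on both arrays. Stellate cell and fibroblast markers were higher for 10 of 12 genes, with a median of 0.77 and sums of 9482 and 5693. Rgs5, a pericyte gene, read 12.21 against 11.26, and Sparc, a matrix protein, 10.79 against 10.39. Col1a1 and Pdgfra of that list were below the floor on both arrays.

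The remaining marker lists lay closer to 0, apart from those of Schwann cells and neurons (4 of 4 higher, median 0.60) and of ductal cells (5 of 5 higher, median 0.32). Endothelial markers had a median of 0.058, lymphocyte markers -0.14 and acinar markers 0.11. The 13 beta cell markers had a median of 0.036 with 6 lower and 7 higher. They ran from Ucn3 at -0.81 (10.80 against 11.61) to Abcc8 at 0.49, whose other probe set stood at 0.92. Ins1 and Mafa of that list had no probe set with 1 gene symbol. The 4 markers of other endocrine cells had a median of 0.047. Insulin and its fellow markers were high on both arrays: Ins2 read 14.95 and 15.02 and Iapp, the islet amyloid peptide, 14.84 and 14.80, transgenic first. Markers of acinar cells, the enzyme-secreting cells of the exocrine pancreas, were high on both arrays too: the digestive enzyme genes Cpa1 and Cela1 read 14.17 and 14.13 on the transgenic and 14.04 and 13.95 on the control array. Of 6 acinar markers at the floor 5 were higher, their sums on the linear scale were 63416 and 57656, and Ptf1a was below the floor on both arrays. The part of other cell types in the values of Zeb1, Zeb2, Xiap, Jazf1 and Dnajc3 was not tested. The signal ratio of the 3' to the 5' end, which is lower for intact RNA, was read from array controls: the log2 difference was 1.21 (transgenic) and 1.09 (control) for Actb, and 0.55 and 0.68 for Gapdh.

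**Figure D4:**
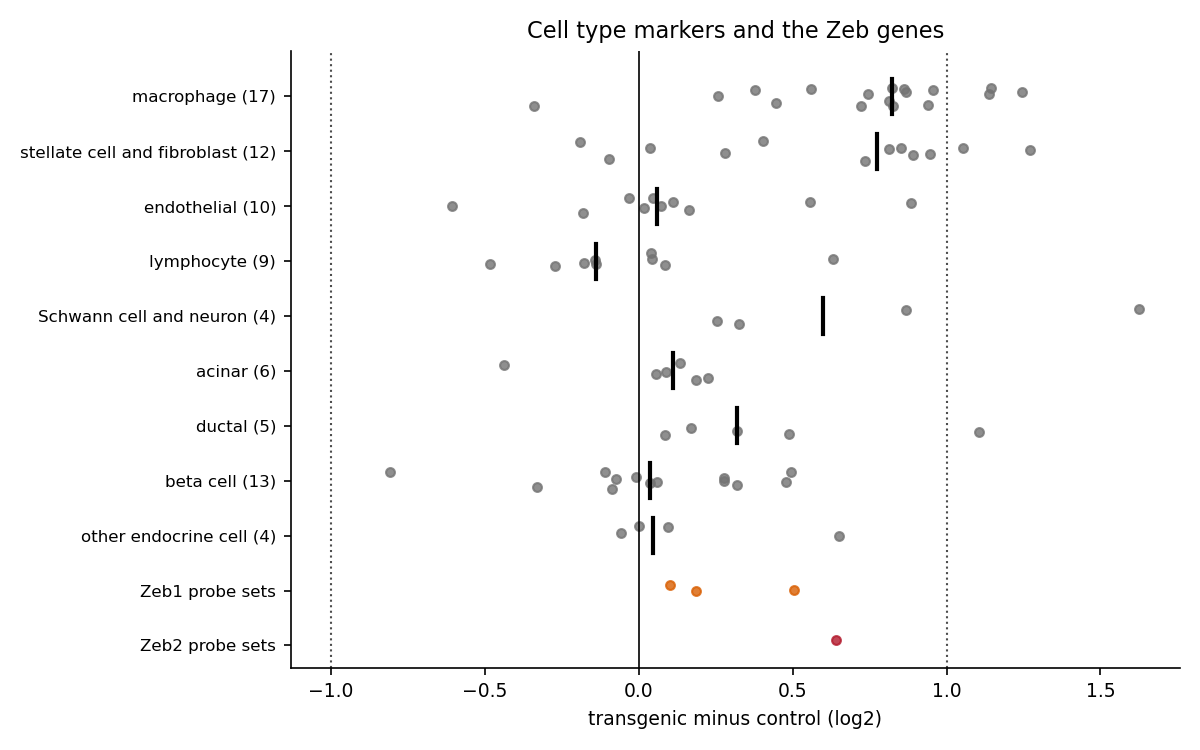
Transgenic minus control difference (log2, horizontal axis) of each marker gene at the floor (grey points, number of genes in brackets, black bar at the median of the list) and of the Zeb1 and Zeb2 probe sets at the floor; dotted lines mark 2-fold. Macrophage and stellate cell markers have medians of 0.82 and 0.77, and the Zeb2 point at 0.64 and the highest Zeb1 point at 0.50 lie below these medians.

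The genes that act with the members were read from 13 lists of 100 genes, each gene through its probe set with the highest mean. Of 93 genes at the floor 45 were lower and 48 higher, with a median of 0.019, and 1 gene was 2-fold lower and 1 was 2-fold higher. Over all 12148 genes at the floor 45.7% were lower, 0.51% were at least 2-fold lower and 2.53% at least 2-fold higher, with a median of 0.029. The medians of 7 of the 13 lists changed sign under at least 1 alternative processing, so the sign of a list median near 0 carries no direction.

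Dnajc3 acts with Hspa5 (BiP), the main chaperone of the endoplasmic reticulum. Of Hspa5 and its 7 other co-chaperones and exchange factors 7 of 8 were lower, with a median of -0.21. Hspa5 itself read 13.41 on the transgenic and 13.64 on the control array, and its 3 probe sets ran from -0.60 to -0.18. The furthest lower was Dnajc10, a reductase with a J domain, at -0.51 (9.76 against 10.27), lower by all 3 of its probe sets. The only gene on the higher side was Sil1, a nucleotide exchange factor of Hspa5, at 0.34 (9.49 against 9.15). Sec63 was counted as lower at -0.18, but only 1 of its 4 other probe sets was lower, and these ran from -0.22 to 0.34. Dnajc3, at -0.46, stood on the same side as most of this group and was not the furthest of it.

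Of the 4 kinases that phosphorylate eIF2 alpha 1 was lower, with a median of 0.069, which turned to -0.24 with a floor at the 75th percentile. Eif2ak3 (PERK), the kinase of the endoplasmic reticulum that Dnajc3 inhibits, stood at 0.071, and the furthest higher was Eif2ak4 (GCN2) at 0.13. Eif2ak2 (PKR), which Dnajc3 also inhibits, stood at -0.55 with its other probe set at 0.70. Downstream of eIF2 alpha phosphorylation 5 of 8 genes were lower (median -0.075). Ddit3 (Chop), a transcription factor of the stress response that promotes cell death, read 10.37 against 11.37 and was 2.01-fold lower, with its other probe set at -0.57. Atf3, a stress-induced factor of the same branch, was the furthest higher at 0.22.

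Dnajc3 and Hspa5 share an element of their promoters, and it is printed because the group was mostly lower. The endoplasmic reticulum stress response element (ERSE), bound by Atf6 and Xbp1, was searched as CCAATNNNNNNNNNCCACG on both strands of the RefSeq windows from 250 bases before to 50 bases after each start (GRCm38.p6). It was found for 37 of 27025 genes, or 0.137%, and for 2 of the 7 genes of this group that have a window. The element is in capitals, with 5 bases on each side, on the plus strand.
Dnajc3, chr14:118937822-118937850: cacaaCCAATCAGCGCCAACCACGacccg
Hspa5, chr2:34772020-34772048: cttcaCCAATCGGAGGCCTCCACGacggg

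The Dnajc3 match begins 105 and the Hspa5 match 65 bases before the start. A related form, ERSE-II, was searched as ATTGGNCCACG and was found for Dnajb11, a further co-chaperone of Hspa5, and for 0.0444% of all genes. A match describes the letters of a window and is neither a shown binding site nor a cause of the values.

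Xiap binds caspases and is itself countered by antagonists, some of them released from mitochondria. Casp9, the initiator caspase that Xiap binds, read 7.40 against 7.57 (-0.17), with its other probe set at 0.21. Of the antagonists Diablo (0.031), Htra2 (-0.17), Septin4 (-0.082) and Xaf1, 3 were lower. The furthest lower was Xaf1, which is induced by interferon, at -0.52 (7.06 against 7.58), with its other probe set at -1.93. Arel1, counted in the same list, is a ubiquitin ligase for the antagonists and acts against them. It was the furthest higher at 0.16, with its other probe set at 1.12. The median over these 5 genes was -0.082, and it turned to 0.097 with the stricter floor and to 0.031 without the _s, _x and _a classes of probe sets. The other 4 inhibitor of apoptosis genes were 2 lower and 2 higher. Their median of 0.12 turned to -0.29 without those classes and to -0.043 with the mean of each gene's probe sets. Birc5 (survivin), which also serves cell division, was the furthest higher at 0.75 (8.18 against 7.42), and Birc6, a large ubiquitin ligase, the furthest lower at -0.29.

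Epithelial genes that Zeb1 and Zeb2 repress were 10 higher and 6 lower, with a median of 0.11 over 16 genes. Patj, a polarity protein, was 2.52-fold higher (9.12 against 7.79), and its other probe set stood at 1.35. Cldn4, a claudin of tight junctions, was the furthest lower at -0.39 (11.20 against 11.59). Cdh1, the E-cadherin gene and the standard readout of Zeb1, read 12.06 against 11.95, a difference of 0.11; it was chosen after its value was seen. Of the corepressors and other factors of the epithelial to mesenchymal transition, Smarca4, a remodelling ATPase that binds Zeb1, was the furthest higher at 0.34. The corepressor Ctbp2 was the furthest lower at -0.19. Their other probe sets were of the opposite sign, at -0.13 for Smarca4 and 0.095 for Ctbp2. Snai1, Snai2 and Twist1 were below the floor on both arrays. Of 3 mesenchymal genes, Cdh2 (N-cadherin) stood furthest higher at 0.49 and Fn1 (fibronectin) at -0.017, with a list median of 0.23.

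Zeb1 and Zeb2 bind E-boxes of the form CAGGTG, and 2 matches of genes with opposite differences are printed with the element in capitals and 5 bases on each side, on the strand of the gene.
Patj, chr4:98395802-98395817, plus strand: cggccCAGGTGaggag
Cldn4, chr5:134946913-134946928, minus strand: tgttgCAGGTGcaggc

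The E-box was found on either strand for 9 of the 9 epithelial genes with a window and for 22.6% of all genes. Genes with several starts have several windows and so more chance of a match. The 9 genes include Crb3 (-0.38) and Cldn4 on the lower side as well as Patj and Ap1m2 (0.46) on the higher side. Because all 9 had a match, genes of this list with and without a match could not be compared.

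Jazf1 is a subunit of the NuA4/TIP60 acetyltransferase complex and binds the nuclear receptor Nr2c2. Of 17 genes of the complex at the floor 8 were lower and 9 higher, with a median of 0.012, which turned to -0.041 with the mean of probe sets. The helicase gene Ruvbl1 stood furthest lower at -0.44 (7.59 against 8.04) and Meaf6 furthest higher at 0.42 (7.93 against 7.51). Nr2c2 stood at 0.019, with its other probe sets from -0.59 to 0.74, and Nr2c1 at -0.19.

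For Rps6kb1 only its pathway could be read. Of 14 upstream kinases and regulators 5 were lower and 9 higher (median 0.038). The list holds activators of mTOR signalling, such as Rheb, beside inhibitors, such as Tsc1 and Tsc2. Its counts and median therefore give no direction for the pathway. Mtor, the kinase that activates S6K1, was the furthest higher at 0.45 (9.03 against 8.58), although its other probe set stood at -0.16. Rheb, the GTPase that activates mTOR, was the furthest lower at -0.43 (11.93 against 12.36). Of the paralogue and the substrates of S6K1 4 of 8 were lower, with a median of 0.00010. The paralogue Rps6kb2 was the furthest higher at 0.70 (6.90 against 6.20), and Pdcd4, a translation inhibitor that S6K1 marks for degradation, the furthest lower at -0.46 (11.28 against 11.74).

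**Figure D5:**
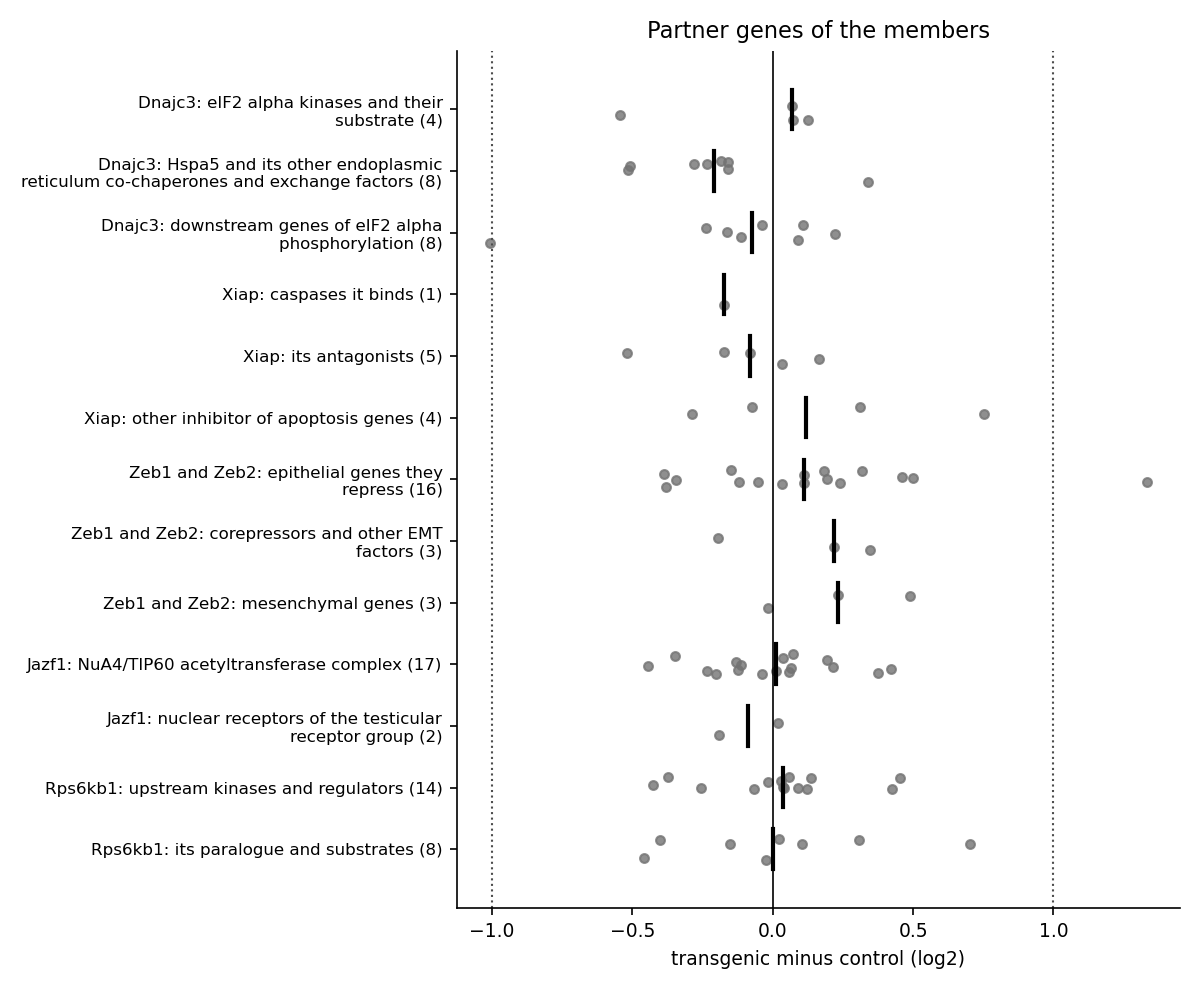
Transgenic minus control difference (log2, horizontal axis) of each partner gene at the floor (points), in 13 lists named by the member they belong to (number of genes in brackets); black bars are list medians and dotted lines mark 2-fold. The list of Hspa5 and its co-chaperones has its median at -0.21 with 7 of 8 genes below 0. Ddit3 and Patj are the genes past 2-fold by their probe set with the highest mean.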

How the data were processed

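The authors deposited a log2 value for each probe set, made with RMA in Affymetrix Expression Console, per the submitters' processing notes; its version is not given in the sources used here, nor whether other arrays were normalized with these 2. RMA corrects background, equalises the distributions of the arrays and summarises the probes of a set. Of 45101 probe sets 34945 had 1 gene symbol, 932 had several and 64 were array controls. Symbols outside the member genes were updated by Entrez identifier to the GRCm38.p6 gene table (34741 matched). No count of reads exists, so precision is limited by 1 array per group.

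Differences, the floor, probe set agreement and list medians were computed with Python 3.11.15, numpy 2.4.6 and pandas 2.3.3, and checked on simulated arrays with known shifts. The members and lists were chosen with earlier results of these data known, and the promoter motifs after the values were seen. Named partner genes are the furthest in each direction of a list and any past 2-fold; of the macrophage and stellate lists, the 2 with the highest mean. Other genes named, among them Hspa5, Eif2ak3, Crb3, Ap1m2, Nr2c2, Diablo, Htra2, Septin4, Ins2, Iapp, Cpa1 and Cela1, were named for their roles after values were seen. Alternatives were no floor, a floor at the 75th percentile, a second quantile normalization, removal of a lowess trend of span 0.3 (statsmodels 0.14.6), leaving out the _s, _x and _a classes, the mean of probe sets, and a 1.5-fold rule.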

Additional observations from a re-analysis of the deposited data

How the results depend on the processing

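Of 138 values recomputed under 7 alternatives 128 stayed within the median gap of 0.20 between probe sets of a gene or, for counts, within 1.5 times. This count is no measure of stability. A gene's value rests on its probe set with the highest mean, so many alternatives that kept that probe set could not change it. A list median near 0 could also change sign within 0.20 and still be counted as staying. Leaving out the _s, _x and _a classes left 3 Dnajc3 probe sets, of which 3 were lower, and moved the median of the inhibitor of apoptosis genes to -0.29. With the mean of its probe sets Xiap stood at -0.016. With no floor 5 Xiap probe sets of 7, 1 Zeb1 probe set of 4 and 14 member probe sets of 22 were lower, and the median of the corepressors and EMT factors was 0.0079. With the stricter floor 0 of 1 Xiap probe sets was lower, the eIF2 alpha kinases had a median of -0.24, and Zeb2 had no value. A 1.5-fold rule gave 1 higher member probe set. Beyond the numbers of probe sets used, the cause of these shifts was not tested. No paired analysis was possible because each group has 1 array. Signal over background limits Zeb2, the lower Xiap probe sets and 2 of the Zeb1 probe sets.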
